A study of Homo sapiens with 6 samples.

Results

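Ligands, receptors and SMAD proteins of TGF-beta signaling and the ID genes were examined in DU145 cells treated with taraxasterol (TAX). The group holds 10 genes, TGFB1, TGFB2, TGFBR1, TGFBR2, SMAD3, SMAD6, SMAD7, ID1, ID2 and ID3, out of 23062 identifiers in each table. The genes were taken by symbol, and each symbol was found in every library. DU145 is an androgen-independent human prostate cancer cell line derived from a brain metastasis, labelled WT. RNA was sequenced from 3 control samples kept in MEM medium for 48 h and from 3 samples treated with TAX, a plant triterpene, at its IC50 for 48 h. TAX was dissolved in DMSO, and the labels give medium alone for the control cells, so the solvent and TAX cannot be told apart. The labels do not say whether the 3 samples of a group were independent cultures, and p-values then measure only the spread between these samples.

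TGF-beta ligands bind a pair of receptor serine/threonine kinases, of which the type II receptor (TGFBR2) activates the type I receptor (TGFBR1). The type I receptor phosphorylates SMAD2 and SMAD3, which join SMAD4 and regulate transcription, while SMAD6 and SMAD7 are inhibitory SMADs that are themselves induced by the pathway. ID proteins lack a DNA-binding domain and hold basic helix-loop-helix factors away from DNA, and ID1, ID2 and ID3 are well-known targets of the BMP branch, which acts through SMAD1 and SMAD5. In epithelial cells TGF-beta is best known for growth arrest and for epithelial-mesenchymal transition.

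The sequences upstream of 3 of these genes are shown because they differ in motifs that SMAD proteins are known to bind. RefSeq lists 1 transcription start for TGFB1, TGFB2, SMAD6, ID1, ID2 and ID3, and 2 to 8 starts for the other genes. Windows from 250 bases before to 50 bases after each start were searched on both strands for GTCTAGAC, the SMAD palindrome, for GGCGCC, a GC-rich SMAD site, and for CAGAC, the SMAD box. No match of one motif can lie inside another. GTCTAGAC was found in 1 of the 10 genes, SMAD6, and in 0.256% of 27305 genes with a window. GGCGCC was found in 2 of the 10 genes, SMAD3 and TGFBR1, and in 22% of all genes, and CAGAC in 5 of the 10 genes and in 13649 of all genes. The windows of ID1 and ID2 held none of the 3 motifs. Below are the 250 bases before the start (RefSeq, GRCh38.p14), 5′ to 3′ on the strand of the gene, in lower case with the motif matches in capitals. They lie at chr20:31605039-31605288 for ID1 (plus strand), at chr15:66701986-66702235 for SMAD6 (plus strand) and at chr15:67065352-67065601 for SMAD3 (plus strand, the first of its 5 listed starts).
ID1: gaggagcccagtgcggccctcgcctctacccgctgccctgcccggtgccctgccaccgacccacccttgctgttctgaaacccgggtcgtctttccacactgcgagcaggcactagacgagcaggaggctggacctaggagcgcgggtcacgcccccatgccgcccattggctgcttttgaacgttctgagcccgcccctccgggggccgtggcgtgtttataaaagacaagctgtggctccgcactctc
SMAD6: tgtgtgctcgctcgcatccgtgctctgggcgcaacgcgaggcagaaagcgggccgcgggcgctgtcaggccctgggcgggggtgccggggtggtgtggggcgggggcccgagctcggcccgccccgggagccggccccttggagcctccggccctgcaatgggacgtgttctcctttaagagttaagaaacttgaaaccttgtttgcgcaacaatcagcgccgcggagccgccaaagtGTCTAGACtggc
SMAD3: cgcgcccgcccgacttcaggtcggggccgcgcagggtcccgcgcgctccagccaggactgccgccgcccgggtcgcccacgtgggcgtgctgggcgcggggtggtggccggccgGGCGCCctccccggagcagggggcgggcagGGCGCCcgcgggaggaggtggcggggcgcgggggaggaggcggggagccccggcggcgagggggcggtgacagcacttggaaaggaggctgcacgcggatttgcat

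Expression values, whose unit the headers do not name, were taken as FPKM. These are fragments normalised to transcript length and to library size, a scale on which levels of different genes can be compared. The number of reads is unknown, because the tables hold no counts. The summed FPKM ranged from 322483 to 363724 per library, and the genes listed at 0 from 3997 to 4798. Control replicate 3 stood apart from the other libraries. The median log2(FPKM + 1) of the tested genes was 3.28 in control replicate 3 and 3.44 to 3.46 in the other 5 libraries, and 72.3% of the tested genes had their lowest control value there. Of the 10 genes, 6 had their lowest control value in control replicate 3. Values without it are given beside most differences that moved with it, and for SMAD3, the ID genes and TGFBI also after each library was centred on its own median. The epithelial markers KRT8, KRT18, KRT19, EPCAM and CDH1 were all expressed, and their summed FPKM was 428 to 545 in control and 555 to 606 in TAX libraries. The androgen targets KLK3 and KLK2 were listed at 0 in all 6 libraries. The fibroblast list was at 1.90 to 2.11 FPKM in control and 1.43 to 1.5 FPKM in TAX libraries, nearly all of it COL1A1, with DCN, LUM and COL1A2 at 0. The endothelial list reached at most 0.0368 FPKM. Of the leukocyte list, CD3E was at 0 and PTPRC at most at 0.00692 FPKM, and its sum of 20.3 to 26.9 FPKM in control and 32.7 to 33.9 FPKM in TAX libraries was almost wholly CD68, a lysosomal gene. The part of these shifts in the results was not tested.

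The ID genes and SMAD3 showed the largest differences between TAX-treated and control cells, in opposite directions. ID1, ID2 and ID3 had TAX to control ratios of the mean FPKM of 0.811, 0.699 and 0.786, and SMAD3 had a ratio of 1.20. The ligands, receptors and inhibitory SMADs had ratios between 0.960 and 1.12. None of these differences passed the test across all genes. In RNA of whole cultures, fewer cells that express a gene and less RNA per cell cannot be told apart. On the log2(FPKM + 1) scale, which understates the change of low genes, limma with Benjamini-Hochberg adjustment gave an adjusted p under 0.05 for 0 of the 9 genes that passed the filter on low values, against 0.477% of the 12359 genes tested. An unadjusted p under 0.05 was found for 3 of the 9 genes (SMAD3, ID2 and ID3), and for 10.1% of all tested genes. The median difference of the 9 genes was 0.016, while that of all tested genes was 0.054.

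**Figure D1:**
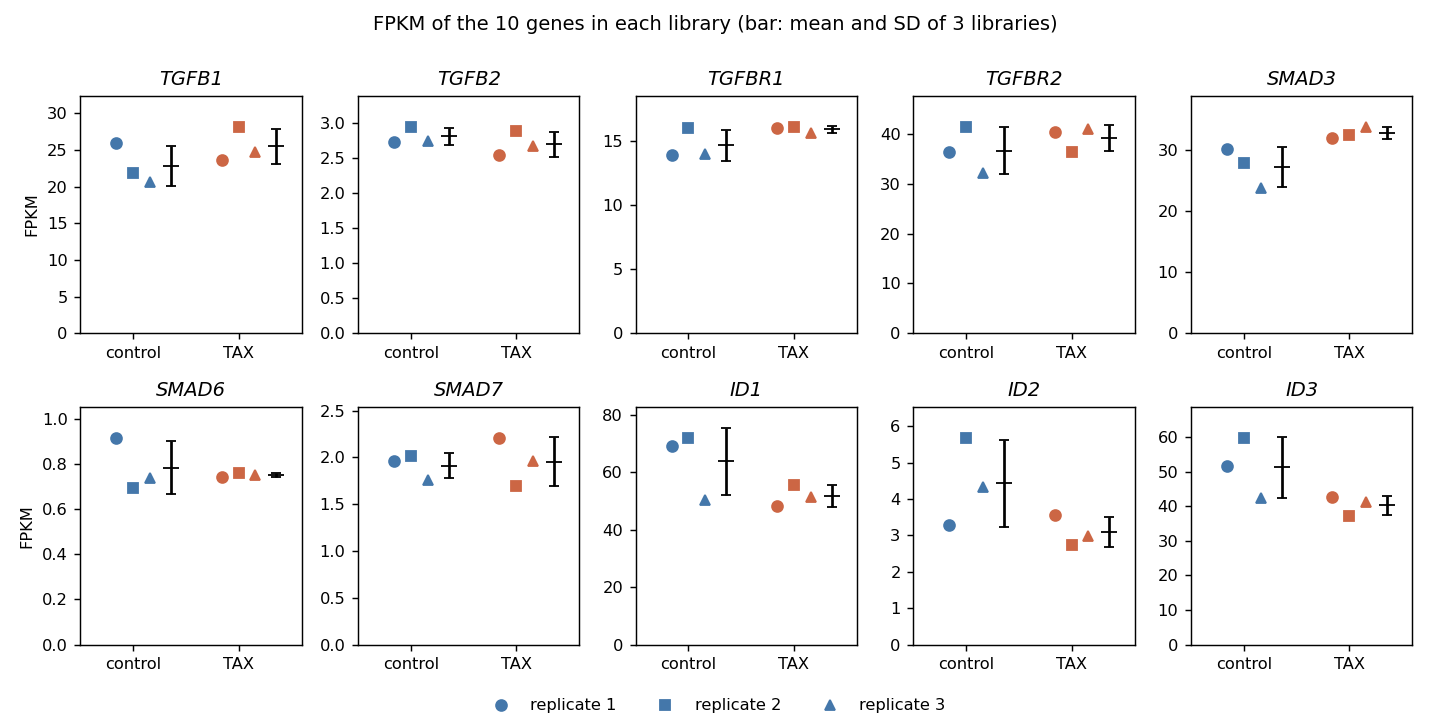
FPKM (y axis, from 0, a separate scale for each gene) of the 10 genes in the 3 control and the 3 TAX libraries. Symbols mark the replicate number and bars the mean and SD of 3 libraries. Only for SMAD3 do the 3 TAX libraries (31.9 to 33.8) all lie outside the range of the control libraries (23.7 to 30.1).

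In untreated cells the genes covered a wide range of levels. Values with ± are means with the SD of the 3 libraries of a group (n = 3). ID1 was the highest of the 10, with 63.8 ± 11.8 FPKM, followed by ID3 with 51.3 ± 8.73 FPKM, TGFBR2 with 36.6 ± 4.68 FPKM and SMAD3 with 27.2 ± 3.26 FPKM. TGFB1 followed with 22.8 ± 2.79 FPKM and TGFBR1 with 14.6 ± 1.16 FPKM, and the last 4 were ID2 with 4.43 ± 1.20, TGFB2 with 2.81 ± 0.119, SMAD7 with 1.91 ± 0.136 and SMAD6 with 0.783 ± 0.118 FPKM. Among neighbours in this order, the control values of ID1 and ID3 overlapped, as did those of SMAD3 and TGFB1. The other neighbours did not overlap in control cells. In TAX-treated cells ID3 overlapped with TGFBR2 and ID2 with TGFB2. By its mean over all libraries, ID1 exceeded 95% and SMAD6 exceeded 36.9% of the genes with a value above 0.

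Both ligands are secreted in a latent form. TGFB1, on chromosome 19 from 41301587 to 41353911 (minus strand, GRCh38, GENCODE 29), measured 25.9, 21.9 and 20.6 FPKM in the control libraries 1 to 3, and 23.6, 28.2 and 24.8 FPKM in the TAX libraries 1 to 3. The groups overlapped, with TAX replicate 2 the highest and control replicates 2 and 3 the lowest. The log2 difference of TGFB1 was 0.16 (standard error 0.104, 95% interval -0.07 to 0.39, adjusted p = 0.621 from limma). It was 0.09 without control replicate 3 and also without TAX replicate 2, and 0.25 without control replicate 1 (unadjusted p = 0.0341, adjusted p = 0.441). TGFB1 overlaps HNRNPUL1, CCDC97, TMEM91 and AC011462.1 on the opposite strand, and no source used here states that reads were counted by strand. TGFB2, on chromosome 1 from 218346235 to 218444619, had control values of 2.73, 2.95 and 2.75 FPKM (replicates 1 to 3) and TAX values of 2.54, 2.89 and 2.67 FPKM. These ranges were nearly the same, and the log2 difference was -0.04 (95% interval -0.22 to 0.13, adjusted p = 0.864 from limma). The TGFB1 to TGFB2 ratio within a library was 8.14 ± 1.18 in control and 9.46 ± 0.273 in TAX-treated cells. The ratios overlapped between groups (two-sided exact permutation p = 0.3, where 0.1 is the lowest value possible).

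The receptors showed no separation of the groups. TGFBR1, on chromosome 9 from 99104038 to 99154192, was at 13.9, 16 and 14.0 FPKM in controls 1 to 3, with 16, 16.1 and 15.6 FPKM after TAX. Control replicate 2 lay among the TAX libraries, and the other controls lay below them. TGFBR2, on chromosome 3 from 30606502 to 30694142, had control values of 36.3, 41.5 and 32.1 FPKM (replicates 1 to 3) and TAX values of 40.5, 36.3 and 41.1 FPKM. The highest and the lowest value of TGFBR2 were both in control cells. The log2 differences were 0.12 for TGFBR1 (95% interval -0.06 to 0.30, adjusted p = 0.648) and 0.10 for TGFBR2 (95% interval -0.12 to 0.33, adjusted p = 0.743, limma). Without control replicate 3 they were 0.09 and 0.02, and without control replicate 2 they were 0.18 and 0.19 (unadjusted p = 0.0637 and 0.0781, adjusted p = 0.403 and 0.427, limma). The pseudogenes RNA5SP290 and AC096921.1 overlap TGFBR1 and TGFBR2 on the opposite strand. The TGFBR2 to TGFBR1 ratio within a library was 2.5 ± 0.179 in control and 2.47 ± 0.197 in TAX-treated cells (two-sided exact permutation p = 0.7).

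SMAD3, which carries the signal of the TGF-beta receptors to the nucleus, lies on chromosome 15 from 67063763 to 67195195. The antisense genes AC087482.1 and AC012568.1 overlap it, so their reads could be mixed with those of SMAD3. SMAD3 was at 30.1, 27.9 and 23.7 FPKM in controls 1 to 3, with 31.9, 32.4 and 33.8 FPKM after TAX. Every TAX library was above every control library, with a gap of control replicate 1 to TAX replicate 1 that was small beside the range of the controls. The log2 difference of SMAD3 was 0.26 (standard error 0.095, 95% interval 0.05 to 0.47, unadjusted p = 0.0198, adjusted p = 0.403 from limma). Such a separation upwards was seen in 1 of the 9 tested genes and in 14.6% of all tested genes, and downwards in 0 of the 9 and 3.34%. The log2 difference of SMAD3 was 0.17 without control replicate 3 (unadjusted p = 0.031, adjusted p = 0.390) and 0.20 after median centring (unadjusted p = 0.0127, adjusted p = 0.260, limma), again without overlap. SMAD2, the close relative of SMAD3, had 12.9 ± 2.29 FPKM without and 13.1 ± 1.54 FPKM with TAX. The SMAD3 to SMAD2 ratio was 2.14 ± 0.326 and 2.51 ± 0.322, with overlap (two-sided exact permutation p = 0.3).

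The inhibitory SMADs were low and without a difference beyond the spread. SMAD7, which blocks the type I receptor and lies on chromosome 18 from 48919853 to 48952052, had control values of 1.96, 2.02 and 1.76 FPKM (replicates 1 to 3) and TAX values of 2.21, 1.69 and 1.96 FPKM. The TAX libraries held both the highest and the lowest value, and the log2 difference was 0.02 (95% interval -0.18 to 0.22, adjusted p = 0.962 from limma), or -0.04 after median centring. SMAD6, which acts mainly on the BMP branch, lies on chromosome 15 from 66702228 to 66782848. It stayed below 1 FPKM in every library and did not pass the filter, and it was at 0.916, 0.695 and 0.737 FPKM in controls 1 to 3, with 0.743, 0.762 and 0.750 FPKM after TAX. The TAX values lay close together within the control range. When SMAD6 was added to the fit, its log2 difference was -0.02 (95% interval -0.21 to 0.16, adjusted p = 0.935 from limma). Its palindromic motif, shown above, began 12 bases before the RefSeq start, and GENCODE exons cover 8 of the 250 bases shown. A link of the motif to the level of SMAD6 was not tested.

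The 3 ID genes were all lower on average in TAX-treated cells, but not in every library. ID1, on chromosome 20 from 31605283 to 31606515, had control values of 69.1, 72.0 and 50.3 FPKM (replicates 1 to 3) and TAX values of 48.1, 55.6 and 51.4 FPKM. Control replicate 3 lay among the TAX libraries, and the other controls lay well above them. ID3, on chromosome 1 from 23557918 to 23559794, was at 51.7, 59.8 and 42.3 FPKM in controls 1 to 3, with 42.6, 37.2 and 41.1 FPKM after TAX. Only control replicate 3 and TAX replicate 1 of ID3 overlapped, and by a small margin. ID2, on chromosome 2 from 8678845 to 8684453, had control values of 3.28, 5.68 and 4.32 FPKM (replicates 1 to 3) and TAX values of 3.56, 2.74 and 2.98 FPKM. Here control replicate 1 was the low control, and TAX replicate 1 lay above it. ID2-AS1 overlaps ID2 on the opposite strand, so their reads could be mixed.

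On the log2 scale ID1 differed by -0.28 (standard error 0.129, 95% interval -0.57 to 0.00, unadjusted p = 0.0517, adjusted p = 0.492). ID2 differed by -0.39 (standard error 0.146, 95% interval -0.71 to -0.06, unadjusted p = 0.0236, adjusted p = 0.413) and ID3 by -0.33 (standard error 0.119, 95% interval -0.59 to -0.07, unadjusted p = 0.0193, adjusted p = 0.402, all from limma). The controls spread more than the TAX libraries, with a coefficient of variation of 18.5% against 7.22% for ID1, 27.2% against 13.6% for ID2 and 17.0% against 6.87% for ID3. The size of the ID3 difference depended most on control replicates 2 and 3, and that of ID2 on control replicates 1 and 2. That of ID1 moved with each of the controls. For ID1 it was -0.22 without control replicate 1 (unadjusted p = 0.167) and -0.23 without TAX replicate 1 (unadjusted p = 0.142, limma). Leaving out control replicate 1 gave ID2 a log2 difference of -0.55 (unadjusted p = 0.00197, adjusted p = 0.185, limma). Without control replicate 3 the log2 difference was -0.44 for ID1 (unadjusted p = 0.000542, adjusted p = 0.0780) and -0.46 for ID3 (unadjusted p = 0.00115, adjusted p = 0.113, limma). For ID2 it was then -0.39 (unadjusted p = 0.0717, adjusted p = 0.487, limma). Without control replicate 2, the highest library for all 3 genes, the log2 differences were -0.19 for ID1, -0.23 for ID2 and -0.21 for ID3, with adjusted p from 0.432 to 0.538 (limma).

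After each library was centred on its median, all TAX values of ID1 and ID3 lay below all control values. The centred log2 level of ID1 was 2.69, 2.74 and 2.40 in controls 1 to 3, with 2.16, 2.38 and 2.26 after TAX. That of ID3 was 2.28, 2.47 and 2.15 in controls 1 to 3, with 1.99, 1.81 and 1.95 after TAX. The differences were then -0.34 for ID1 and -0.39 for ID3 (unadjusted p = 0.00876 and 0.0023, adjusted p = 0.219 and 0.130 from limma), while ID2 still overlapped at -0.45 (unadjusted p = 0.019, adjusted p = 0.304). On this scale 2 of the 9 tested genes were below the controls without overlap, against 9.53% of all tested genes, and 1 of the 9, SMAD3, was above them, against 9.14%. The fit called none of the 9 genes on either scale.

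**Figure D2:**
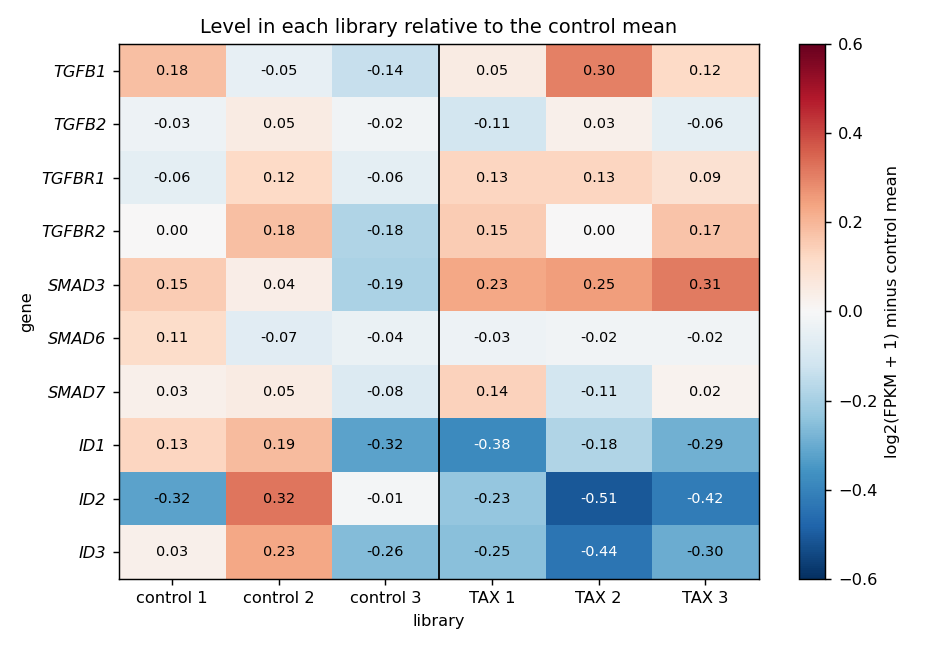
Level of each gene (rows) in each library (columns) as log2(FPKM + 1) minus the mean of the 3 control libraries, from blue (lower) to red (higher), with the value written in each cell. ID3 lies between -0.25 and -0.44 in the TAX libraries and at -0.26 in control replicate 3, and SMAD3 lies between 0.23 and 0.31 in the TAX libraries.

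The proportions among the ID genes overlapped between the groups. The ID1 to ID3 ratio within a library was 1.24 ± 0.0808 in control and 1.29 ± 0.185 in TAX-treated cells (two-sided exact permutation p = 0.8). ID1 exceeded ID2 by 15.1 ± 5.17-fold in control and 17.0 ± 3.38-fold in TAX-treated cells (two-sided exact permutation p = 0.6). ID4, the remaining family member, was listed at 0 in all 6 libraries. Among the basic helix-loop-helix partners of ID proteins, TCF3 had 37.0 ± 3.06 FPKM without and 39.4 ± 1.47 FPKM with TAX, and TCF12 had 20.6 ± 2.95 and 21.6 ± 1.79 FPKM. TCF4 was listed at 0 throughout. The differences of TCF3 and TCF12 lay within the replicate spread (limma, adjusted p = 0.721 and 0.839).

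**Figure D3:**
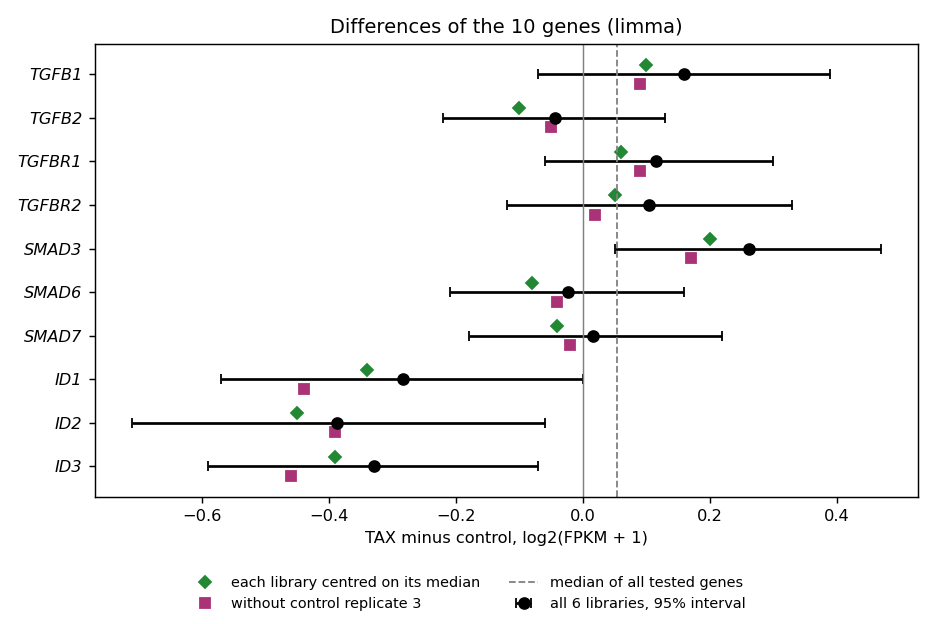
Difference between TAX and control on the log2(FPKM + 1) scale (x axis) for the 10 genes (y axis). Black points and bars give the limma estimate with its 95% interval from all 6 libraries, green diamonds the estimate after median centring and purple squares that without control replicate 3, and the dashed line is the median of all tested genes, 0.054. The estimates of ID1, ID2 and ID3 lie between -0.28 and -0.46, SMAD3 lies at 0.17 to 0.26, and the other genes lie nearer to 0.

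Of 65 other genes of the TGF-beta and BMP pathways, 42 passed the filter, and 0 of them had an adjusted p under 0.05 (limma), against 0.477% of all tested genes. An unadjusted p under 0.05 was found for 6 of the 42, against 10.1% of all tested genes. Of these 6, SMURF2, CDKN1A and SNAI2 were higher and THBS1, TGFBI and JUNB were lower in TAX-treated cells. The median difference of the 42 genes was 0.032. The SMADs that complete the pathway were expressed, and their groups overlapped, with 8.17 ± 1.11 FPKM of SMAD4 without and 8.95 ± 0.120 FPKM with TAX, 11.4 ± 1.26 and 11.8 ± 0.486 FPKM of SMAD1, and 10.4 ± 1.10 and 11.1 ± 0.451 FPKM of SMAD5. Their adjusted p ranged from 0.671 to 0.846 (limma).

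TGFBI, a secreted matrix protein named for its induction by TGF-beta, was at 45.4, 45.5 and 35.9 FPKM in controls 1 to 3, with 31.9, 33.0 and 31.7 FPKM after TAX. All TAX libraries were below all controls, and the log2 difference was -0.37 (standard error 0.1, unadjusted p = 0.00358, adjusted p = 0.212 from limma). After median centring it was -0.43 (adjusted p = 0.0298 from limma), and without control replicate 3 it was -0.48 (adjusted p = 0.0332), so that TGFBI passed in these fits. They called 96 and 27 of all 12359 tested genes, in place of 59. JUNB, an AP-1 factor induced early by TGF-beta and BMP, had control values of 24.2, 29.7 and 20.1 FPKM (replicates 1 to 3) and TAX values of 19.7, 18.5 and 19.4 FPKM. THBS1, which releases TGF-beta from its latent form, was at 11.6, 12.8 and 8.86 FPKM in controls 1 to 3, with 8.22, 7.81 and 8.47 FPKM after TAX. For JUNB and THBS1, as for ID1 and ID3, control replicate 3 was the control nearest to the TAX libraries. Unlike those of ID1 and ID3, the groups of JUNB and THBS1 did not overlap. The log2 differences of JUNB and THBS1 were -0.33 and -0.38 (limma adjusted p = 0.406 and 0.280). Without control replicate 3 they were -0.46 and -0.52 (adjusted p = 0.125 and 0.0506), and after median centring -0.39 and -0.44 (adjusted p = 0.141 and 0.0696, limma). Without control replicate 2 the difference of JUNB was -0.19 (unadjusted p = 0.0843).

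Of the genes with higher means, SMURF2, a ubiquitin ligase that is recruited by SMAD7 to the receptors, had 10.5 ± 1.16 FPKM without and 12.5 ± 0.222 FPKM with TAX without overlap (adjusted p = 0.413 from limma). CDKN1A, the gene of the cell cycle inhibitor p21, had 26.7 ± 4.40 and 32.3 ± 1.04 FPKM, and control replicate 2 overlapped with the TAX libraries. SNAI2, a transcription factor of epithelial-mesenchymal transition, had 1.28 ± 0.441 and 1.82 ± 0.370 FPKM, also with overlap. Without control replicate 3 the log2 difference was 0.16 in place of 0.24 for SMURF2 (unadjusted p = 0.0376), 0.17 in place of 0.28 for CDKN1A (unadjusted p = 0.0851) and 0.22 in place of 0.32 for SNAI2 (unadjusted p = 0.198, limma). Without control replicate 2 it was 0.40 for CDKN1A and 0.47 for SNAI2 (adjusted p = 0.170 and 0.191). The Notch and BMP target HEY1 was under the filter, with 0.303 ± 0.0629 FPKM without and 0.694 ± 0.117 FPKM with TAX, as was the BMP target ATOH8, with 0.0688 ± 0.00573 and 0.0375 ± 0.0154 FPKM.

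**Figure D4:**
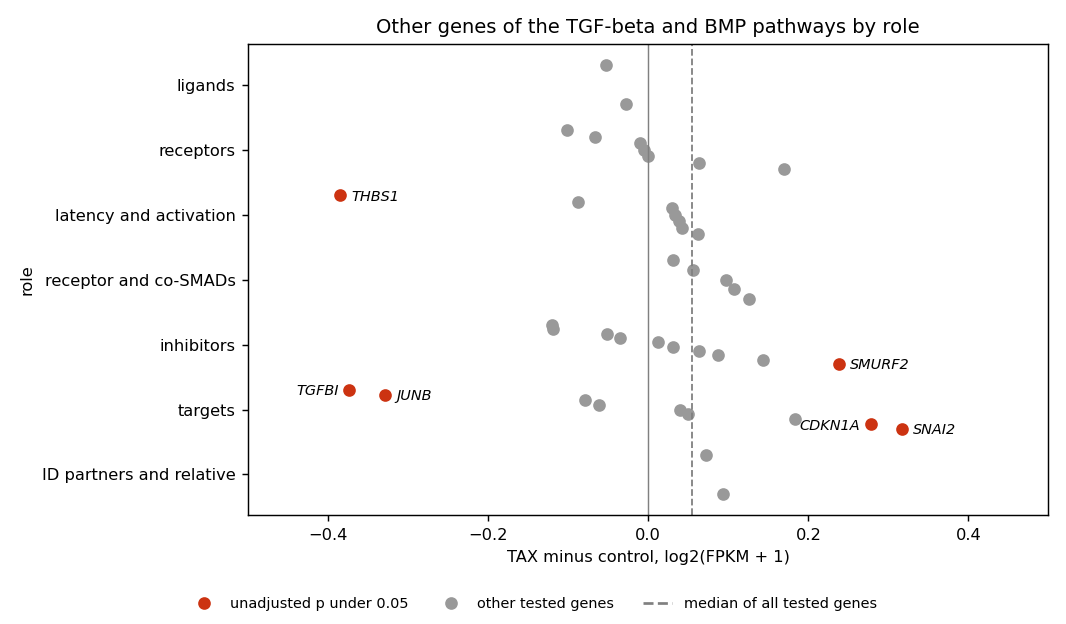
Difference between TAX and control on the log2(FPKM + 1) scale (x axis) of the 42 other pathway genes that passed the filter, by role (y axis). Red points have an unadjusted p under 0.05 and are named, grey points do not, and the dashed line is the median of all tested genes. The differences range from -0.38 for THBS1 to 0.32 for SNAI2, and the receptors, ligands and SMADs lie between -0.10 and 0.17.

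As a description over 6 libraries, the profile of log2(FPKM + 1) of ID1 was most like those of H2BC4, TBC1D3E and DNAL4 among 11638 tested genes with a symbol (Pearson's r of 0.990, 0.989 and 0.989). H2BC4 encodes a histone H2B and DNAL4 a dynein light chain, while TBC1D3E belongs to a family of near-identical copies, so its reads are of uncertain origin. Within the 10 genes ID3 was the nearest to ID1, with r of 0.835 and rank 403 of the 11638. The genes most like SMAD7 were RCHY1, PDCD4 and IL1RAP (r of 0.984, 0.982 and 0.979). SMAD7 and ID1 had an r of 0.047. These libraries share the 2 groups and the shift of control replicate 3, and the profiles were chosen as the highest of many.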

How the data were processed

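RNA of 3 control and 3 TAX-treated DU145 samples was sequenced, and each library has a table of gene values made by the authors. The values were taken as FPKM, since the headers name no unit. Their sums differ between libraries, whereas complete TPM tables sum to the same total. The submitters' processing notes name HISAT2 2.2.0, StringTie 2.1.2 and GRCh38. The annotation and filters are not given in the sources used here. Depth is unknown, so no counting interval can be given. From the deposited FPKM, log2(FPKM + 1) was fitted with limma 3.58.1 in R 4.3.3 (trend, no covariate, Benjamini-Hochberg) over 12359 genes that reached 1 FPKM in 3 or more libraries. Genes under this filter among the 10 (SMAD6) were added in a second fit. The fit was tested on simulated data. Single ratios were compared by exact permutation tests. Group is TAX or control by sample title. Named genes are the 10, fixed pathway genes (SMAD4, SMAD1, SMAD5, ID4, TCF3, TCF12), up to 3 per role by p under 0.05, and the 3 profiles most like ID1 and SMAD7. SNAI2, SMAD2, HEY1, ATOH8 and TCF4 were named after their values were seen. Some genes of these lists are not reported here. The members and lists were chosen with earlier results of these data known. Positions come from GENCODE 29 and sequences from RefSeq. Alternatives were another pseudocount, 2 other filters, quantile normalization, median centring, no trend, a replicate block and leaving out each library.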

Additional observations from a re-analysis of the deposited data

How the results depend on the processing

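Of 130 refits of single genes (10 genes under 13 alternatives), 126 kept the direction and the side of the threshold, and 0 genes of the 10 passed an adjusted p of 0.05 under any alternative (limma). SMAD7 changed sign to -0.04 after median centring, -0.02 without control replicate 3 and -0.05 without TAX replicate 1, and SMAD6 to 0.03 without control replicate 1. With a library left out SMAD7 ranged from -0.05 to 0.08 and SMAD6 from -0.06 to 0.03. The cause was not tested, and all 4 values are small beside their standard errors. The number of the 9 tested genes with an unadjusted p under 0.05 was 3, and 1 to 3 with a library left out, 1 being the value without control replicate 2 (SMAD3). After quantile normalization and after median centring it was 4, as ID1 joined SMAD3, ID2 and ID3 (limma). Of all 12359 tested genes, 1460 and 1497 then had such a p, in place of 1253. Without a filter on low values, 2 of the 10 genes (SMAD3 and ID3) had such a p, and 1854 of 20280 genes. The number of other pathway genes with an adjusted p under 0.05 was 0, and 1 (TGFBI) after quantile normalization, after median centring and without control replicate 3, so that it ranged from 0 to 1 with a library left out. Of all 12359 tested genes, these 3 fits called 95, 96 and 27, in place of 59. The number of other pathway genes at an unadjusted p under 0.05 was 6, and 3 to 8 with a library left out, 3 without TAX replicate 1. Among all 12359 tested genes that number was 1253, and 779 to 1644 with a library left out. It was 842 without TAX replicate 1 and 1644 without control replicate 2. With the replicate block, 4 of the 9 tested genes had an unadjusted p under 0.05 and 0 an adjusted p under 0.05. Of all tested genes, 971 in place of 1253 then had an unadjusted p under 0.05, and 26 were called in place of 59. Deviations of same-numbered libraries from their group means correlated at -0.117, -0.333 and -0.171, and those of other pairs at -0.167 to 0.292. These values gave no sign of pairing by number. Deviations within a group depend on each other, so pairing could not be decided from them. Without a filter on low values, 1 gene of 20280 was called in place of 59 of 12359.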
